A study of Homo sapiens with 16 samples.

Results

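Histone acetyltransferases were followed in H1299 cells after knockdown of YEATS2, using the RNA-seq count table of 12676 genes. The 10 genes described here were taken by symbol: KAT2A, KAT2B, KAT5, KAT6A, KAT6B, KAT7, KAT8, EP300, CREBBP and NCOA3, and all 10 were in the table and passed the filter on low counts. H1299 is an established line from a human non-small cell lung carcinoma. YEATS2 belongs to ATAC, a complex whose acetyltransferase is GCN5 or PCAF. The control cells (shNT) had been infected with a virus that carried a non-targeting shRNA and the knockdown cells (shYEATS2) with an shRNA against YEATS2, and each group had 2 libraries. All cells were exposed to polybrene at 8 µg/ml and, after 48 h, selected with puromycin at 2 µg/ml for 4 to 7 days according to the labels. The labels do not name the shRNA of these libraries. The paper states that its duplicate RNA-seq used a single YEATS2 shRNA and that another was sequenced separately. Effects of the shRNA other than on YEATS2 were not tested here. Every library came from infected and selected cells of a single line. The paper describes its RNA-seq replicates as independent and biological, and the labels do not say whether they were separate infections. The ChIP-seq samples of the series were not used here.

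Lysine acetyltransferases move an acetyl group from acetyl-CoA to lysine side chains of histones and other proteins, and histone acetylation is associated with active transcription. The enzymes fall into families that are unlike in sequence. KAT2A (GCN5) and KAT2B (PCAF) are paralogs that serve as alternative catalytic subunits of ATAC and SAGA and acetylate mainly H3K9. KAT5 (TIP60), KAT6A (MOZ), KAT6B (MORF), KAT7 (HBO1) and KAT8 (MOF) form the MYST family, EP300 (p300) and CREBBP (CBP) are paralogous coactivators that acetylate H3K27 among other sites, and NCOA3 is a p160 coactivator of nuclear receptors that recruits p300 and CBP.

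The libraries held 34718921 to 39417787 reads in listed genes. Read counts were scaled with TMM factors (edgeR) to the mean library size, which gives the scaled reads used below. YEATS2 itself had 4482 and 4104 scaled reads in shNT and 665 and 673 in shYEATS2 cells (log2 fold change -2.68). Its FDR was 0.000583 by the quasi-likelihood test of edgeR, where the FDR is the p-value adjusted over all genes by Benjamini and Hochberg. KRT8, KRT18 and VIM, expressed in this carcinoma line, had at least 7983 scaled reads in every library. PTPRC, CD3E, PECAM1, COL1A1 and ALB, markers of leukocytes, T cells, endothelium, fibroblasts and hepatocytes, were not among the listed genes, each of which has over 100 reads in some library. In bulk RNA, fewer expressing cells and less RNA per cell cannot be told apart.

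Of the 10 acetyltransferase genes, 1 was lower in YEATS2 KD cells (KAT2A) and 2 were higher (NCOA3 and KAT2B) at an FDR under 0.01, and 7 were not called. Among all 12676 genes, 12.5% were called lower and 12.9% higher, 25.3% together, so a share of 3 in 10 members is near the background. The members had a median log2 fold change of 0.15, and all genes had -0.0019. The groups did not overlap for any of the 10 members, 4 being lower and 6 higher after knockdown, against 39.8% lower and 39.7% higher of all genes, 79.6% together. At an unadjusted p under 0.05, 2 members were lower and 5 higher, against 27.8% and 28.7% of all genes. KAT2A had the largest fall and NCOA3 the largest rise among the 10.

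The promoter sequences of the 3 called members are shown first, because KAT2A and KAT2B are paralogs that moved in opposite directions while KAT2B and NCOA3 moved together. They are the 250 bases before the RefSeq start of each gene on GRCh38.p14, written 5′ to 3′ on the strand of the gene, at chr17:42121368-42121617 (minus strand) for KAT2A, chr3:20040196-20040445 (plus strand) for KAT2B and chr20:47501637-47501886 (plus strand) for NCOA3. Capitals mark matches to any of the motifs listed after the sequences.
KAT2A: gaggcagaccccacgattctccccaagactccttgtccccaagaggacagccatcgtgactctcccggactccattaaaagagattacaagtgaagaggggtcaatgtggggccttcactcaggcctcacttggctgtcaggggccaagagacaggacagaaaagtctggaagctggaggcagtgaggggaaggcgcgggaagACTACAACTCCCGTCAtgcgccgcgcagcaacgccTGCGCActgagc
KAT2B: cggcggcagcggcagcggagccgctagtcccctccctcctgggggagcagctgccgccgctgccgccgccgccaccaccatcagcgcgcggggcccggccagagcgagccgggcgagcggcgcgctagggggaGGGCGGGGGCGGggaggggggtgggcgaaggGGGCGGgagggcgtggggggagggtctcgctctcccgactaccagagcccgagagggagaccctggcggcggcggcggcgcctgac
NCOA3: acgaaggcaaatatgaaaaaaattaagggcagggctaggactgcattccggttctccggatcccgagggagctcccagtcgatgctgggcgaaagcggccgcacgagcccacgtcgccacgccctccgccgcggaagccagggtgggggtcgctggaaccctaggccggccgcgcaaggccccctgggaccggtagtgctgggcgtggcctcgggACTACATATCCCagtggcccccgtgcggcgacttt

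The promoters of the GCN5 and PCAF genes differed in composition, with 58.8% G and C in KAT2A and 80.8% in KAT2B, and NCOA3 had 66.4%. Motifs were searched on both strands of 35116 RefSeq windows of the same length, 8 members having a window in the table. The GC box (GGGCGG) matched 3 times in KAT2B, not in KAT2A or NCOA3, and in 42.6% of all windows. The ZNF143 motif, whose matches are the long runs of capitals in KAT2A and NCOA3, matched in KAT2A and in NCOA3, and in 1.67% of all windows. This motif was added after the sequences had been seen. The NRF1 core (TGCGCA) and the cAMP response element core (TGACG) matched once each in KAT2A alone of the 3, against 6.89% and 21.2% of all windows. The match to TGACG in KAT2A overlaps the ZNF143 match. The E-box (CACGTG, 6.34% of windows), the CCAAT box (CCAAT, 32.0%) and the ETS motif (CCGGAAGT, 3.42%) matched in none of the 3. Over all 8 members, the GC box matched in 3, TGACG in 4, the ETS motif and the ZNF143 motif in 2 each, and the other motifs in 1 each. A match is a description of these letters only.

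All levels here are of RNA, and protein was not measured. The paper reports that YEATS2 knockdown left the stability of ATAC components unaffected. KAT2A, which encodes the catalytic subunit GCN5, was lower in YEATS2 KD cells. It lies on chromosome 17 of GRCh37 from 40265129 to 40273385 on the minus strand, and its exons share 405 bases with another gene of the annotation on the same strand, which is not in the table. KAT2A had 3269 and 3103 scaled reads in shNT and 1926 and 1194 in shYEATS2 cells. Both knockdown libraries were below both controls, and the knockdown libraries stood far apart from each other, replicate 1 being 1.61 times replicate 2. The mean of KAT2A was 3186 ± 118 in the controls and 1560 ± 517 after knockdown (SD, n = 2 each), a 2.04-fold lower level in YEATS2 KD cells. On the log2 scale this was -1.03 (SE 0.21, FDR 0.00792 in edgeR). It ranged from -1.41 to -0.73 with a single library left out, and the call was lost without shNT replicate 1 (FDR 0.0115) and with scaling by total counts (-0.91, FDR 0.0103). The remaining scalings, the filters and limma-trend gave KAT2A an FDR of 0.00579 to 0.00792, close under the threshold. Its FDR was 0.000431 with the replicate block, 1.84e-05 with exactTest and 1.74e-06 with DESeq2.

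KAT2B, which encodes PCAF, the paralog of GCN5, was higher. The gene lies on chromosome 3 from 20081938 to 20195896 on the plus strand. Its scaled reads were 1479 and 1398 in shNT and 2019 and 2093 in shYEATS2 cells. The groups did not overlap, and the replicates were close to each other in each group. The means of KAT2B were 1439 ± 57.4 and 2056 ± 52.0 (SD, n = 2 each), a 1.43-fold difference (log2 fold change 0.51, SE 0.09, FDR 0.00563 in edgeR). The log2 fold change stayed between 0.48 and 0.55 with any library left out, but the call was lost without shNT replicate 1 (FDR 0.0270), shNT replicate 2 (FDR 0.0427) or shYEATS2 replicate 2 (FDR 0.0143). In all 10 other settings and tests its FDR was at most 0.00602.

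NCOA3, the p160 coactivator, had the strongest rise. It lies on chromosome 20 from 46130631 to 46285621 on the plus strand. The exons of NCOA3 share 247 bases with SULF2 on the opposite strand, which is not in the table. NCOA3 had 2243 and 2207 scaled reads in shNT and 3706 and 4832 in shYEATS2 cells. Knockdown libraries were both above the controls, with replicate 2 at 1.30 times replicate 1. The means of NCOA3 were 2225 ± 26.1 and 4269 ± 796 (SD, n = 2 each), and the level rose 1.92-fold (log2 fold change 0.94, SE 0.14, FDR 0.00290 in edgeR). The call was kept with each library left out, where the log2 fold change lay between 0.74 and 1.12 and the FDR was at most 0.00697. It was also kept in all 10 other settings and tests.

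**Figure D1:**
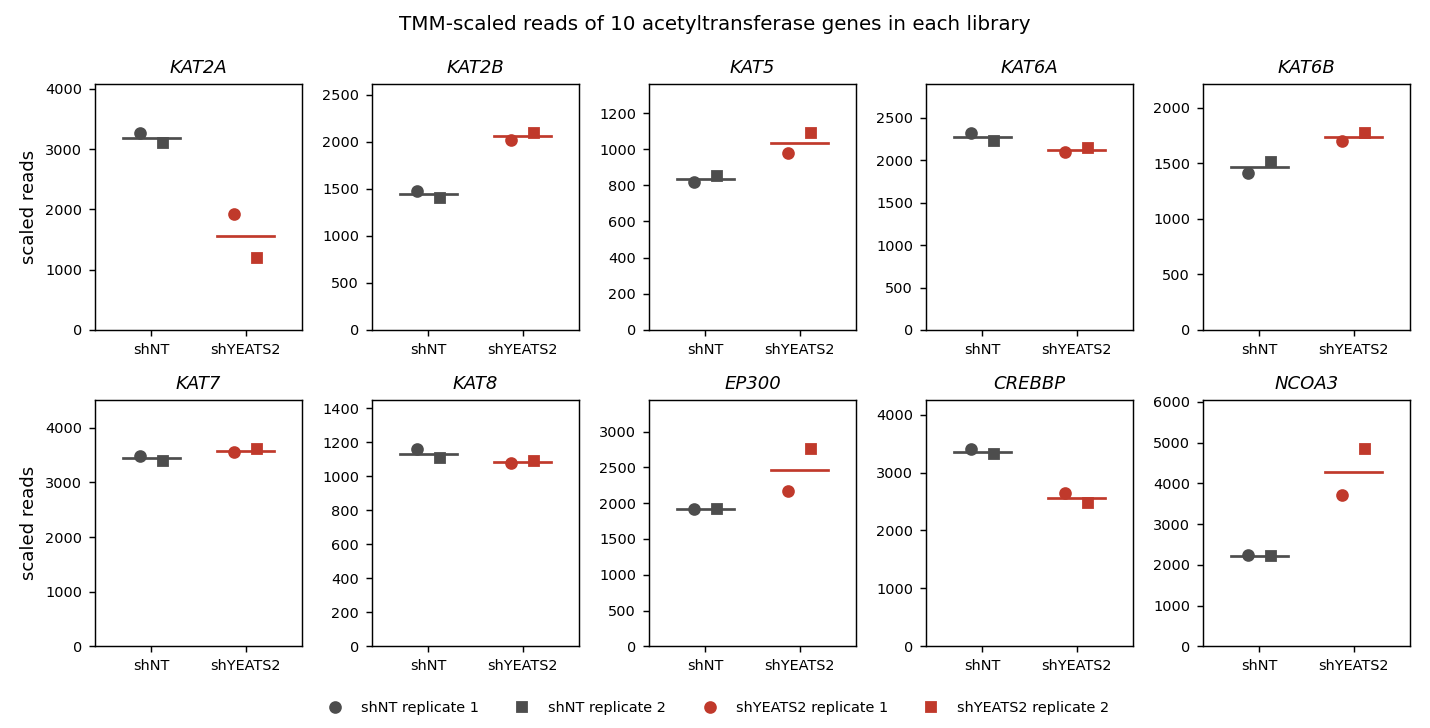
TMM-scaled reads (y axes, each from 0) of the 10 acetyltransferase genes in the shNT (grey) and shYEATS2 (red) libraries; circles are replicate 1, squares replicate 2 and lines group means. KAT2A lies at 3269 and 3103 in the controls and at 1926 and 1194 after knockdown, NCOA3 and KAT2B lie higher after knockdown, and the points of KAT7 and KAT8 are close together.

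The paralogous coactivators EP300 and CREBBP did not pass the threshold, and their estimates had opposite signs. CREBBP, on chromosome 16 from 3775055 to 3930714, had 3398 and 3313 scaled reads in shNT and 2645 and 2470 in shYEATS2 cells. The estimate for CREBBP was -0.39 on the log2 scale (SE 0.09, 95% interval -0.62 to -0.17, FDR 0.0151 in edgeR). DESeq2 (FDR 0.00640) and edgeR's exactTest (FDR 0.00360), as run here, called CREBBP lower. The study also used exactTest, but its counts of called genes differ from those of the run here. Over all settings and tests other than leaving out a library, the FDR of CREBBP ranged from 0.00360 to 0.0466. EP300, on chromosome 22 from 41488596 to 41576081, had 1918 scaled reads in each shNT library and 2169 and 2750 in the shYEATS2 libraries. Its exons share 107 bases with a noncoding RNA gene on the opposite strand, which is not in the table. The knockdown libraries of EP300 were above both controls but differed from each other by 26.8%. Its log2 fold change was 0.36 with a 95% interval from 0.05 to 0.66 and an FDR of 0.0561 in the same test. Without shYEATS2 replicate 1 EP300 was called higher (0.52, FDR 0.00626), and without shYEATS2 replicate 2 the log2 fold change was 0.18.

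None of the 5 MYST family genes was called, against 25.3% of all genes, and 5 genes are too few to be told apart from that share. KAT5, the catalytic subunit of the TIP60 complex, lies on chromosome 11 from 65479467 to 65487075 and had 817 and 849 scaled reads in shNT and 976 and 1090 in shYEATS2 libraries. Its log2 fold change was 0.31 (95% interval 0.04 to 0.58, FDR 0.0565 in edgeR). The exons of KAT5 share 1439 bases with RNASEH2C on the opposite strand, which is also counted, so reads in that stretch may have come from either gene. KAT6B, a catalytic subunit of the MOZ/MORF complex on chromosome 10 from 76584685 to 76792382, had 1416 and 1514 against 1705 and 1774 scaled reads, with a log2 fold change of 0.25 (0.02 to 0.47, FDR 0.0694). The exons of KAT6B share 361 and 65 bases with noncoding RNA genes on the opposite strand, which are not in the table. The intervals of KAT5 and KAT6B lie above 0 before adjustment for all genes, and neither passed the FDR threshold.

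The other MYST genes had estimates near 0. KAT6A, the paralog of KAT6B on chromosome 8 from 41786997 to 41909512, had 2323 and 2224 scaled reads in shNT and 2095 and 2147 in shYEATS2 libraries (log2 fold change -0.10, 95% interval -0.32 to 0.12, FDR 0.387 in edgeR). KAT7, which acetylates H3K14 and H4 with BRPF and JADE scaffolds and lies on chromosome 17 from 47865986 to 47912388, had 3483 and 3391 against 3548 and 3602 (0.06, -0.16 to 0.27, FDR 0.622). Its exons share 226 bases with FAM117A on the opposite strand, which is counted too. They also share 315 bases with a noncoding RNA gene on the same strand, which is not in the table. KAT8, the H4K16 acetyltransferase on chromosome 16 from 31125810 to 31142714, had 1158 and 1107 against 1081 and 1091 (-0.06, -0.30 to 0.18, FDR 0.639). These intervals leave room for changes of up to 0.32 on the log2 scale. With scaling by total counts, under which the median over all genes moved from -0.0019 to 0.12 (log2), the estimates of KAT6A and KAT8 turned positive, at 0.02 and 0.06.

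**Figure D2:**
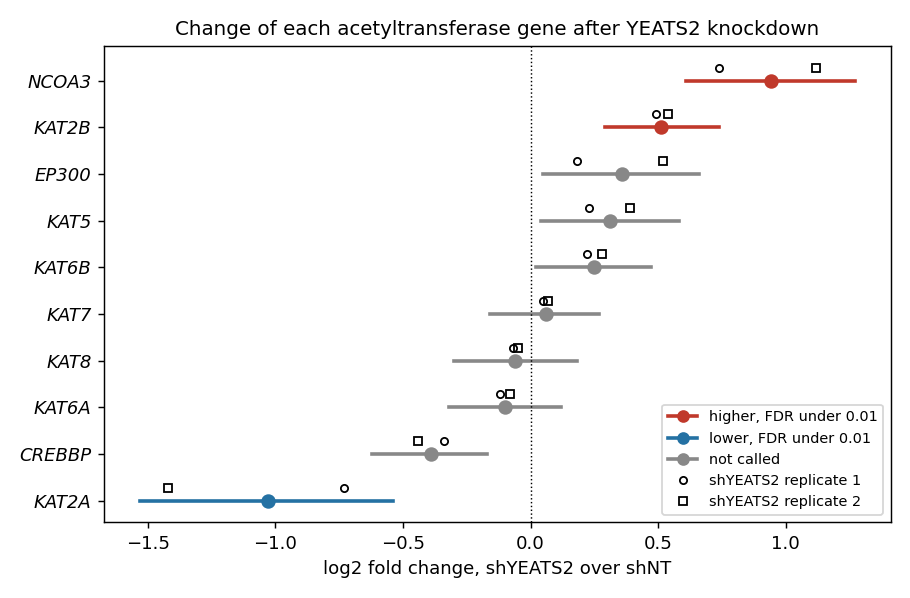
Log2 fold change of shYEATS2 over shNT (x axis) for each gene, with 95% intervals from edgeR's quasi-likelihood test as lines; open symbols above each line are the log2 ratios of the single shYEATS2 libraries to the shNT mean. KAT2A at -1.03 and NCOA3 at 0.94 are at the ends, and the intervals of KAT7, KAT8 and KAT6A cross 0.

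The knockdown replicates were unequal in some members and close in others. In 8 of the 10 members shYEATS2 replicate 2 was farther from the shNT mean than replicate 1, against 71.6% of all genes. For KAT2A the log2 ratios to the shNT mean were -0.73 in replicate 1 and -1.42 in replicate 2, and for NCOA3 they were 0.74 and 1.12. For EP300 they were 0.18 and 0.52. The replicates were closer in KAT2B, at 0.49 and 0.54, and in CREBBP, at -0.34 and -0.44. YEATS2 reads were alike in these libraries, at 665 and 673. The part of this library in the results was not tested beyond leaving it out.

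Transcript length and base composition moved with the fold changes of all genes to a small extent. The tenth of genes with the longest transcripts, which holds KAT6A, KAT6B, KAT7, EP300, CREBBP and NCOA3, had a median log2 fold change of 0.12. After subtraction of the median of their length class, KAT2A was at -1.03, KAT2B at 0.52, NCOA3 at 0.82, EP300 at 0.23 and CREBBP at -0.52. KAT6A moved from -0.10 to -0.22 and KAT6B from 0.25 to 0.12. KAT5 was at 0.34, KAT7 at -0.07 and KAT8 at 0.01. After subtraction of the median of their class of GC content, the 3 called members were at -1.11, 0.58 and 0.97 in the order KAT2A, KAT2B and NCOA3. These corrections were added after the data had been seen and carry no test.

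Levels were compared between genes as scaled reads per kb of the Ensembl canonical transcript. In the shNT libraries KAT2A had the highest level per kb, 1023 ± 37.7 (SD, n = 2), followed by KAT8 at 757, KAT5 at 400, KAT7 at 361, KAT2B at 326, CREBBP at 311, NCOA3 at 279, KAT6A at 248, EP300 at 219 and KAT6B at 176. No neighbours in this order overlapped between the libraries. In the shYEATS2 libraries KAT8 came first at 726 per kb. NCOA3 (536 ± 100), KAT2A (501 ± 166), KAT5 (497 ± 38.9) and KAT2B (466 ± 11.8) followed, each overlapping its neighbour among these 4, and KAT7 at 376 came next without overlap. EP300 at 280 per kb then stood above CREBBP at 237, the reverse of their order in the controls, and CREBBP overlapped KAT6A at 232. The order depends on the transcript taken as the length, since over all annotated exons KAT8 in the shNT libraries had 198 scaled reads per kb, below KAT2B at 276, while KAT2A at 844 stayed first and KAT6B at 45.1 last. In the shYEATS2 libraries KAT8 lost its first place on that length, at 190 per kb against 507 for NCOA3, 413 for KAT2A and 395 for KAT2B.

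**Figure D3:**
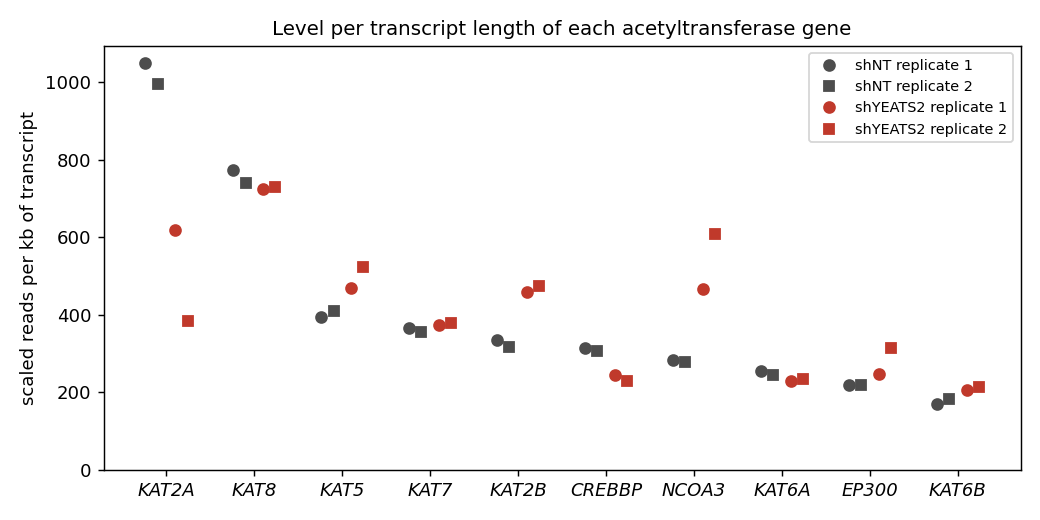
Scaled reads per kb of canonical transcript (y axis from 0) for each gene and library, ordered by the shNT mean; grey is shNT, red is shYEATS2, circles are replicate 1 and squares replicate 2. KAT2A drops from 1049 and 996 per kb in the controls to 618 and 383 after knockdown, on either side of KAT2B, KAT5 and NCOA3 in the same libraries, which span 458 to 607.

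The summed level of the 10 genes differed little between the groups, at 4157 and 4046 scaled reads per kb in shNT and 4033 and 4087 in shYEATS2 libraries, which overlap. The sum of KAT2A and KAT2B was 1385 and 1313 per kb in shNT and 1076 and 858 in shYEATS2 libraries, so the mean sum fell by 28.3%. GCN5 transcripts made up 75.8% and 75.9% of that sum in the controls and 57.5% and 44.7% after knockdown. The sum of EP300 and CREBBP was 533 and 526 per kb in the controls and 492 and 542 after knockdown, where the groups overlapped. EP300 made up 41.3% ± 0.429 of it in shNT and 54.0% ± 5.36 in shYEATS2 libraries (SD, n = 2 each). The MYST family summed to 1957 and 1930 in shNT and 1999 and 2080 in shYEATS2 libraries.

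The ratio of paralogs within a library does not depend on how libraries are scaled. Reads of KAT2A were 2.21 and 2.22 times those of KAT2B in the shNT libraries and 0.954 and 0.571 times in the shYEATS2 libraries. These are ratios of reads, not of levels per length: per kb, KAT2A stayed above KAT2B in shYEATS2 replicate 1 (618 against 458) and was below it in replicate 2 (383 against 475). The mean log2 ratio changed by -1.59, a 3.0-fold fall of the ratio, and lay between -1.96 and -1.22 with a library left out. The EP300 to CREBBP ratio was 0.565 and 0.579 in the controls and 0.820 and 1.11 after knockdown, a difference of 0.74 on the log2 scale (0.52 to 0.96 with a library left out). The KAT6A to KAT6B ratio was 1.64 and 1.47 in the controls and 1.23 and 1.21 after knockdown, a difference of -0.35 (-0.43 to -0.27). In all 3 pairs the groups did not overlap, with gaps of 1.21, 0.50 and 0.26 on the log2 scale. Groups of 2 libraries also did not overlap for 79.6% of all single genes. The share over other pairs of genes was not computed. A two-sided exact permutation test gave p = 0.333 for each of the 3 pairs, also after adjustment over them, which is the smallest value that 2 libraries against 2 can give.

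**Figure D4:**
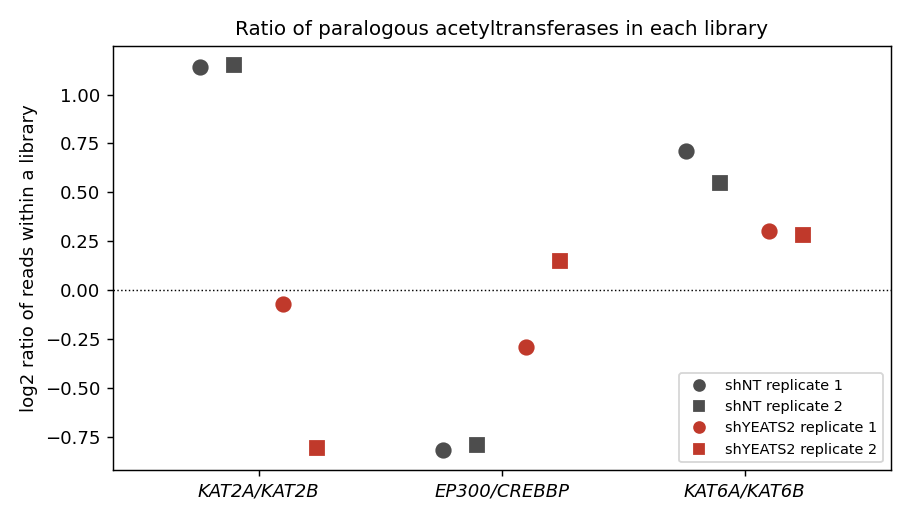
Log2 ratio of reads within each library (y axis) for 3 pairs of paralogous acetyltransferase genes; grey is shNT, red is shYEATS2, circles are replicate 1 and squares replicate 2, and the dotted line marks equal reads. The KAT2A to KAT2B ratio lies at 1.14 and 1.15 in the controls and at -0.07 and -0.81 after knockdown.

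Acetyltransferases work in complexes, and the partner genes were followed in 7 lists that hold 72 different genes, 70 of which are in the table. Of these, 11 were lower and 8 higher (15.7% and 11.4%, against 12.5% and 12.9% of all genes). The lower ones include YEATS2, the target of the shRNA, whose fall was set in advance and is counted in the 15.7%. The median log2 fold change of the 70 genes was -0.02. With scaling by total counts the balance turned, to 8 lower and 13 higher. The counts depended on single libraries, with 6 lower and 3 higher without shNT replicate 1, 5 and 5 without shNT replicate 2, 14 and 10 without shYEATS2 replicate 1 and 8 and 5 without shYEATS2 replicate 2. WDR5, MEAF6, KAT14, NCOA1 and NCOA2 stand in more than 1 list.

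Among 12 partners of GCN5 and PCAF in ATAC and in the HAT module of SAGA, 3 were lower, none was higher and the median log2 fold change was -0.26. These were YEATS2, the target of the shRNA, WDR5 and DR1, or 25.0% of the list, against 12.5% called lower among all genes. That share counts YEATS2, whose fall was set in advance by the shRNA, so it overstates the partners. WDR5, a WD-repeat scaffold shared with the MOF complexes and the H3K4 methyltransferases, fell from 5873 and 5367 scaled reads in shNT to 1518 and 777 in shYEATS2 libraries (log2 fold change -2.29, FDR 0.00176 in edgeR). DR1, a histone-fold subunit of ATAC, had a log2 fold change of -0.55 (FDR 0.00532). ZZZ3, specific to ATAC, had 0.22 (FDR 0.0860), and the HAT module genes TADA2A, TADA3 and SGF29 had 0.07, -0.00 and 0.01. TADA2B, which replaces TADA2A in SAGA, had -0.55 (FDR 0.0146) and was not called. These are RNA values, set beside the paper's report of unaffected stability of ATAC components.

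Of 17 partners of TIP60, 4 were lower and 2 higher (23.5% and 11.8%, against 12.5% and 12.9% of all genes). The median was -0.02. The largest changes were a rise of MBTD1, a reader of methylated histone H4 (log2 fold change 1.05, FDR 0.00243 in edgeR), and falls of YEATS4, another YEATS domain protein (-0.82, FDR 0.00382), of the AAA+ ATPase gene RUVBL2 (-0.80, FDR 0.00260) and of the actin-related gene ACTL6A (-0.73, FDR 0.00454). The scaffolds TRRAP and EP400 had -0.20 and 0.02 and were not called. Of 9 partners of MOZ, MORF and HBO1, 2 were higher (22.2%, against 12.9% of all genes) and none lower, with a median of 0.17. The rises were in BRPF3, a scaffold of HBO1, with 3623 and 3292 scaled reads in shNT and 6456 and 7687 in shYEATS2 libraries (1.03, FDR 0.00146), and in ING4, an H3K4me3 reader (0.98, FDR 0.00126). Of 11 partners of MOF, WDR5 alone was called (9.09% lower, against 12.5% of all genes), and the median was -0.17.

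Among 8 listed partners of p300, CBP and the p160 coactivators, 4 were higher (50.0%, against 12.9% of all genes) and none was lower. The median was 0.49, and the list was chosen with earlier results of these data known. CITED1 was not among the listed genes. NCOA1 and NCOA2, the p160 paralogs of NCOA3, had log2 fold changes of 0.50 (FDR 0.00667) and 0.74 (FDR 0.00343 in edgeR), so all 3 p160 genes were called higher. NCOA2 had 4352 and 4863 scaled reads in shNT and 7112 and 8256 in shYEATS2 libraries, and NCOA1 had 2130 and 2231 against 2981 and 3193. CITED2 (0.69, FDR 0.00678) and CITED4 (0.63, FDR 0.00679), which bind the CH1 domain of p300 and CBP, were the other rises. Calls over all partner lists depended on single libraries, and which of these 4 calls do so was not examined. CREB1, the factor that recruits CBP, had -0.46 (FDR 0.0153) and was not called.

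Of 12 other acetyltransferase genes, 3 were lower and 2 higher (25.0% and 16.7%, against 12.5% and 12.9% of all genes). The median was -0.12, and the 2 higher genes were NCOA1 and NCOA2, already given above. The cohesin acetyltransferase ESCO2 fell from 1400 and 1262 scaled reads to 661 and 393 (log2 fold change -1.34, FDR 0.00465 in edgeR), and HAT1, which acetylates newly made histone H4, fell from 5394 and 5203 to 3300 and 2506 (-0.87, FDR 0.00388). KAT14, the ATAC2 subunit of ATAC, had 268 and 265 against 254 and 199 scaled reads and was not called (-0.24, FDR 0.295). Of 6 listed genes of acetyl-CoA supply, 1 was lower (16.7%, against 12.5% of all genes) and none was higher. This was DLAT, a subunit of pyruvate dehydrogenase (-0.61, FDR 0.00389 in edgeR). ACLY, the cytosolic source of acetyl-CoA from citrate, had 0.11 (FDR 0.338 in edgeR). ACSS1 was not among the listed genes.

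**Figure D5:**
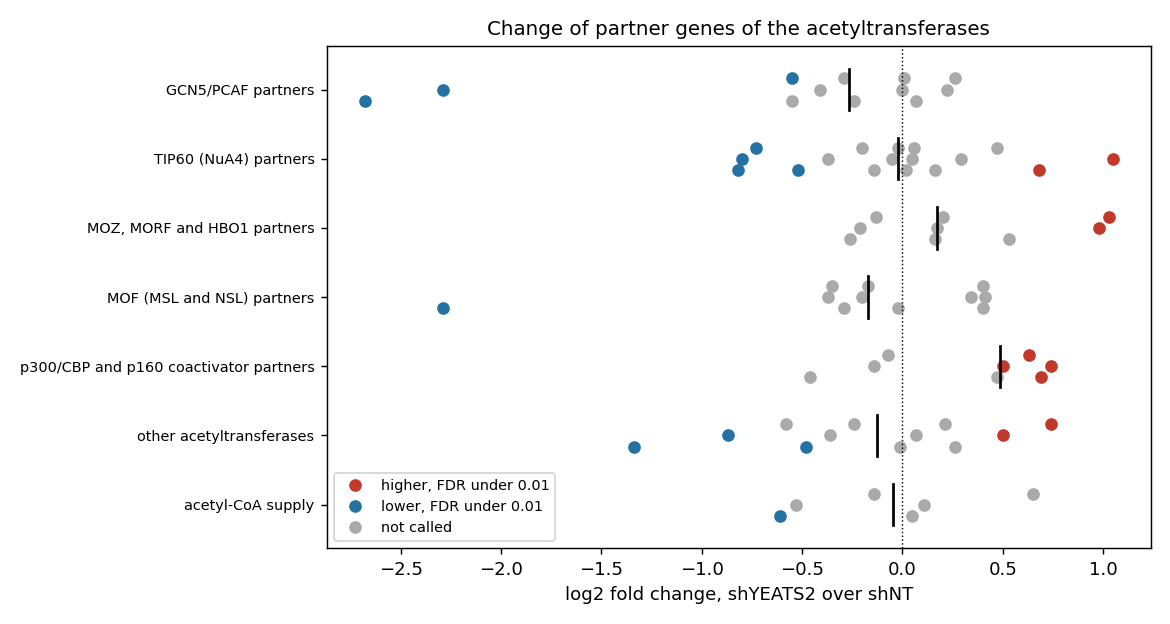
Log2 fold change of shYEATS2 over shNT (x axis) for the genes of 7 partner lists, with red for genes called higher, blue for genes called lower, grey for genes not called and black lines for list medians. The farthest points to the left are YEATS2 at -2.68 and WDR5 at -2.29, and the median of the p300/CBP and p160 list is at 0.49.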

How the data were processed

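RNA-seq of 2 shNT and 2 shYEATS2 libraries was used, grouped by their labels. The authors used the RNA-Seq unified mapper on hg19 and HTSeq at default parameters, and deposited raw counts per gene, not normalized. HTSeq counts by strand at its default, but whether the libraries (TruSeq RNA kit, per the labels) keep strand is not given in the sources used here, so reads where genes overlap on opposite strands may belong to either gene. The submitters' processing notes also list TopHat2 2.0.10 and Bowtie2 2.1.0, and the annotation was not given in the sources used here. The deposited log2 fold changes, p-values and FDR values are the authors' comparison and were not used. The filter asked for 10 reads or more in 2 or more libraries, and all 12676 genes passed. Groups were compared with the quasi-likelihood test of edgeR 4.0.16 in R 4.3.3 after TMM scaling, p-values were adjusted over all genes by Benjamini and Hochberg, the threshold was an FDR under 0.01, and 95% intervals came from the same fit. The alternatives were other tests (exactTest of edgeR, DESeq2 1.42.0 and limma-trend of limma 3.58.1), other scalings (total counts, upper quartile and size factors of DESeq2), other filters (none, or a mean count of 100 or more), an FDR under 0.05, a block for the replicate number, and leaving out each library. The tests were also run on simulated counts that had the same spread for all genes and both groups, unlike these data. The outcome is not reported here and says nothing about the real spread.

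The p-values rest on the spread between these 2 libraries of each group, which the fit of edgeR combines with the spread of the other genes. Replicates differed by more than sampling noise (chi-square per degree of freedom 17.9 in shNT and 38.0 in shYEATS2). The biological coefficient of variation was 0.107. Gene positions and transcript lengths came from a GENCODE annotation on GRCh37, to which 12465 identifiers matched, and promoters from RefSeq on GRCh38.p14. The members and lists were chosen with earlier results of these data known. Named genes are all members, YEATS2 and, in each partner list, up to 4 called genes with the largest changes. Genes of the lists that are named without being called, such as ZZZ3, TADA2B and CREB1, were named after their values had been seen.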

Additional observations from a re-analysis of the deposited data

How the results depend on the processing

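Among the 10 members, 2 were called lower in place of 1 with DESeq2, exactTest, an FDR under 0.05 and the replicate block, CREBBP being the added gene, and 0 with total counts. The number called higher stayed at 2 in all of these settings. With each library left out, 0 to 1 members were lower and 1 to 3 higher; such fits leave 1 library in a group, which is assumed to vary like the others. Of the partner genes, exactTest called 17 lower and 13 higher, the replicate block 17 and 15, an FDR under 0.05 20 and 16, and total counts 8 and 13, and leaving out a library gave 5 to 14 lower and 3 to 10 higher. KAT6A (0.02) and KAT8 (0.06) changed sign with total counts, and KAT7 (-0.07) and KAT8 (0.01) once the median of the length class was subtracted; none of these was called. The causes were not tested. Over all genes, total counts called 1166 lower and 2363 higher against 1581 and 1630, while exactTest called 2497 and 2596, the replicate block 2715 and 2742, an FDR under 0.05 3011 and 3093, and the fit without shNT replicate 1 called 850 and 775. Same-numbered libraries deviated together (r = 0.411 across 12137 genes), but the labels do not tie the numbers to a shared culture. With 2 libraries in each group, members had standard errors of 0.09 to 0.21 on the log2 scale, which limits the detection of small changes.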
